A study of Mus musculus with 20 samples.

Results

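The data compare testes of mice with high blood infiltration by human leukaemia and testes of mice whose labels name no leukaemia, where both groups had received vincristine. The comparison takes 8 of the 20 testis samples of the series, 4 of each group, placed by their titles. High-VCR samples came from male NOD scid gamma (NSG) mice, 6 weeks old, that received 400000 patient-derived cells of B-cell acute lymphoblastic leukaemia (B-ALL) through the tail vein and vincristine sulfate at 0.5 mg/kg into the peritoneum, once weekly for 3 weeks from day 69. VCR samples came from mice of the same strain, sex and age with the same drug schedule. Each treated group was also set against its own saline-treated group of 4: ALL, which carried the leukaemia cells, and NC, the normal controls. All groups share the NSG genotype, an immunodeficient background that lacks mature T, B and natural killer cells, and engrafted mice were sorted into groups by an infiltration index. Whether every sample is its own mouse is not said in the labels, and p-values then reflect only how far these samples vary, which may be partly technical.

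Vincristine binds tubulin and blocks the mitotic spindle, so dividing cells are its main target. In the testis the dividing cells are the spermatogonia, which feed meiotic spermatocytes, round spermatids and elongating spermatids in turn, while Sertoli cells nurse them behind a barrier of tight junctions and Leydig cells outside the tubules make testosterone. Testicular macrophages and vessel cells complete the tissue, and in bulk RNA a lower level of a cell type's genes can mean fewer such cells or less RNA per cell, which cannot be told apart here.

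Totals lay between 13.1 and 16.4 M (mega) counts in High-VCR and between 10.6 and 14 M in VCR, so that 3 counts equal 0.183 to 0.23 CPM (counts per M counts) in High-VCR and 0.214 to 0.282 in VCR. The biological coefficient of variation, the spread between libraries beyond counting noise, was 30.6% in High-VCR and 41.4% in VCR, against 8.41% in ALL and 11.7% in NC. VCR 1 stood apart in the germ line, with a round spermatid score of 1.38 against 4.47 to 5.15 in the other VCR libraries, and High-VCR 2 had the lowest score of its group in 25 of 45 gene lists. VCR and NC libraries carry the numbers 1 to 8 and engrafted groups carry higher ones, so a difference between High-VCR and VCR cannot be told apart from that numbering range. The labels record 1 batch. Defining markers of the testis were present in all 8 libraries, among them Sox9 of Sertoli cells at 60 to 89.7 CPM in High-VCR and 60.3 to 94 CPM in VCR. Lcn5, an epididymal gene, had 2 counts over the High-VCR libraries and 4 over the VCR libraries.

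edgeR called no gene different between High-VCR and VCR. Of 15789 genes tested with edgeR's quasi-likelihood test, 0 passed a Benjamini-Hochberg adjusted p under 0.05, which is 0% in either direction. In all, 449 genes (2.84%) had an unadjusted p under 0.05, of which 260 (1.65%) were higher and 189 (1.2%) lower in High-VCR. DESeq2 called 19 genes, 15 higher and 4 lower, and limma voom with group weights called 2, both higher. The 449 became 183 without High-VCR 3, 228 without VCR 2 and 1004 without VCR 3.

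A missed threshold does not show that groups are alike, so likeness was read from the interval of each difference. A gene was counted as alike when the 95% interval of its log2 fold change lay inside 2-fold either way, between -1 and 1. By that measure 9617 genes (60.9% of those tested) were alike, and the count was 4366 with a margin of 1.5-fold, chosen after seeing the data. The interval reached a median of 0.60 on the log2 scale either side of the estimate. A list of noisy genes can therefore hold few alike genes without any measured difference, and each list's share is set against 60.9% with its median difference. The genes of 45 lists, 1032 in all, of which 919 were tested, were compared in this way. Most alike members named below were picked from the alike genes of their list, so they illustrate its count and add no support.

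**Figure D1:**
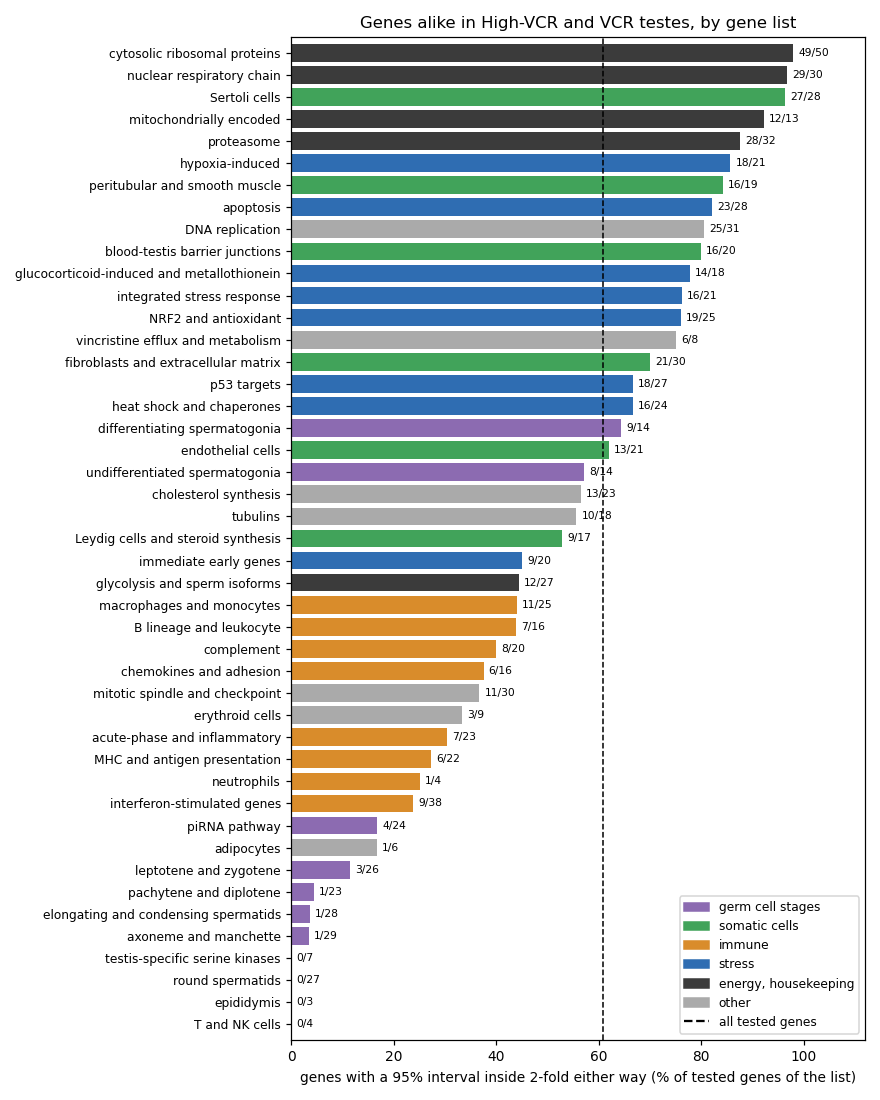
Share of the tested genes of each list whose 95% interval for High-VCR over VCR lay inside 2-fold either way, with the counts at the bar ends and a dashed line at the 60.9% of all tested genes. Ribosomal, respiratory chain and Sertoli cell lists are at the top, immune lists in the lower middle and post-mitotic germ cell lists at the bottom.

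The Sertoli cell programme was alike in both groups. Of 28 Sertoli cell genes, 27 were alike and the list's median difference was -0.09 on the log2 scale. Sox9, the transcription factor that sets Sertoli cell fate, had 88.8, 60, 85.5 and 89.7 CPM in High-VCR against 94, 85.2, 60.3 and 61.7 CPM in VCR. Its difference was 0.11 ± 0.21 (log2 ± SE, 95% interval -0.37 to 0.58). The groups covered the same range, with VCR libraries at both the highest level and close to the lowest. Clu, which encodes the secreted chaperone clusterin, averaged 6880 ± 1360 CPM in High-VCR and 8210 ± 1910 CPM in VCR (SD, n = 4 each), a log2 difference of -0.25 ± 0.24. Amhr2, the receptor of anti-Müllerian hormone, differed by -0.11 ± 0.20. The member left outside the margin was Gata4, a transcription factor of somatic testis cells, at -0.44 ± 0.31 with an interval of -1.16 to 0.28. High-VCR 2 had a Sertoli score of 6.46 against 6.86 to 6.94 in its group. The alike count stayed between 24 and 28 when any single library was left out.

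Junctions of the blood-testis barrier were also mostly alike, at 16 of 20 genes (80%) beside 60.9% of all genes, with a median difference of -0.01. Cgn, which encodes the tight junction protein cingulin, differed by -0.15 ± 0.26 (interval -0.75 to 0.46). Espn, an actin bundler of the Sertoli cell's ectoplasmic specialisations, had 404, 347, 425 and 388 CPM in High-VCR against 386, 388, 309 and 312 CPM in VCR. Cldn3, a claudin, was the member with the smallest p, at 37.3, 71.6, 73.5 and 49.4 CPM in High-VCR against 5.73, 14.5, 44.2 and 30.7 CPM in VCR. Its difference of 1.28 ± 0.57 had an interval of -0.04 to 2.61, and High-VCR 1 lay within the range of VCR. Of 19 peritubular and smooth muscle genes 16 were alike (84.2%), among them Acta2, smooth muscle actin, at -0.24 ± 0.21. In that list 3 (15.8%) had an unadjusted edgeR p under 0.05 with a lower level in High-VCR, beside 1.2% of all genes. The 2 with the smallest p, Cnn1 at -0.48 ± 0.18 without overlap and Notch3 at -0.53 ± 0.20, were still alike by interval. Fibroblast and matrix genes were alike for 21 of 30 (70%), with 29 below 0, and for 13 without High-VCR 4. Endothelial genes were alike for 13 of 21 (61.9%), a share near the 60.9% of all genes. Of those 21 genes 17 lay below 0, beside 49.6% of all tested genes.

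Leydig cell genes lay mostly below 0. Of 17 genes of Leydig cells and steroid synthesis 15 lay below 0, beside 49.6% of all tested genes, and the median difference was -0.41. In this list 9 were alike (52.9%), a share near the 60.9% of all genes. Star, which carries cholesterol into mitochondria, had 246, 226, 275 and 283 CPM in High-VCR against 415, 439, 283 and 261 CPM in VCR, a difference of -0.44 ± 0.21 whose interval of -0.93 to 0.05 stayed inside the margin. VCR 1 and VCR 2 were the high libraries, and the other 2 VCR libraries lay among those of High-VCR. Cyp17a1, the enzyme that turns progestogens into androgens, had 4860, 2260, 2380 and 4490 CPM in High-VCR against 7390, 6570, 3270 and 4060 CPM in VCR, and its interval of -1.46 to 0.25 allowed neither verdict. Insl3, the hormone of testis descent, pointed the other way at 0.29 ± 0.33. The alike count was 5 without High-VCR 1, High-VCR 4 or VCR 4. Cholesterol synthesis, which feeds this pathway, had 13 alike genes of 23 with 21 below 0. Mvk, mevalonate kinase, had 19.2, 14.5, 12.5 and 18.8 CPM in High-VCR against 28.5, 41.1, 21.6 and 24 CPM in VCR, without overlap, and differed by -0.82 ± 0.25 (edgeR unadjusted p 0.00973, adjusted p 0.972).

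**Figure D2:**
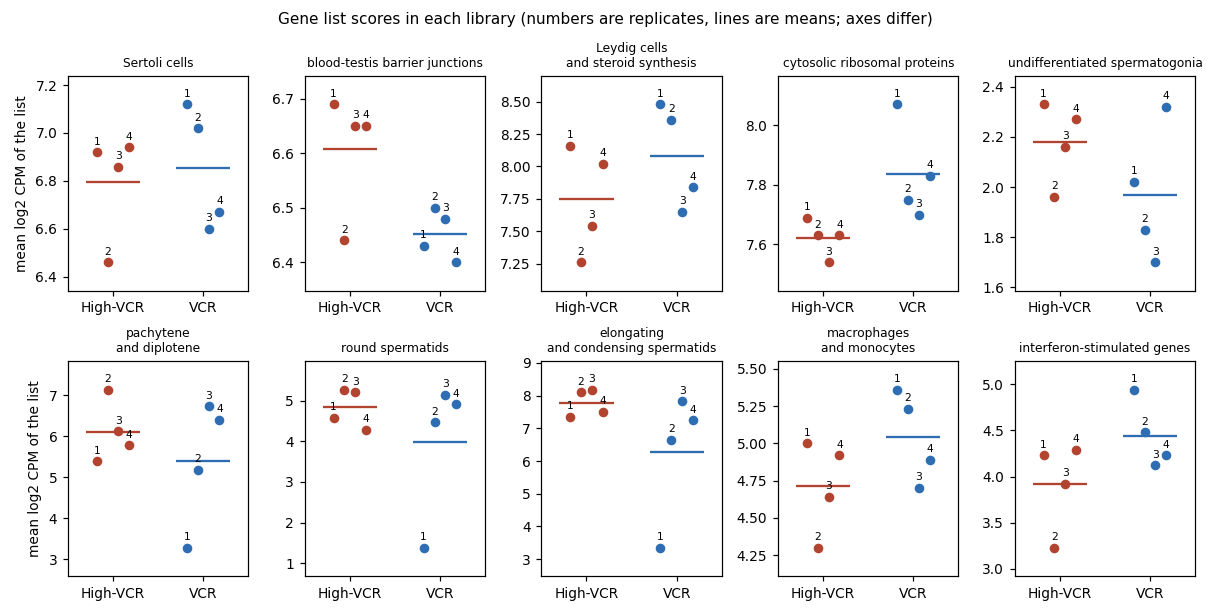
Mean log2 CPM of the genes of 10 lists in each library, with replicate numbers at the points and a line at each group mean. Every panel except cytosolic ribosomal proteins has overlapping groups, VCR 1 is lowest in pachytene, round and elongating spermatid lists, and High-VCR 2 is lowest in its group in the Sertoli, junction, Leydig, macrophage and interferon lists.

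Protein synthesis, respiration and protein breakdown also had large alike shares. Cytosolic ribosomal proteins had 49 alike genes of 50 (98%), the nuclear-encoded respiratory chain 29 of 30 (96.7%) and the proteasome 28 of 32 (87.5%), beside 96.4% of the Sertoli cell list. Leaving out any single library kept these counts between 46 and 49, 25 and 28, and 27 and 29. Sdha, a subunit of succinate dehydrogenase, had 379, 438, 315 and 392 CPM in High-VCR against 425, 427, 426 and 396 CPM in VCR, a difference of -0.13 ± 0.15. Psmd1, a subunit of the proteasome's regulatory particle, had 330, 325, 291 and 319 CPM in High-VCR against 386, 292, 292 and 322 CPM in VCR. In both genes the groups overlapped.

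The ribosomal list was nevertheless the single list of 45 whose scores did not overlap. Its mean log2 CPM was 7.69, 7.63, 7.54 and 7.63 in High-VCR against 8.07, 7.75, 7.70 and 7.83 in VCR. The median gene differed by -0.26, 45 of 50 lay below 0, and 9 had an unadjusted edgeR p under 0.05 with a lower level in High-VCR, which is 18% of the list beside 1.2% of all genes. Rpl15, a large-subunit protein, had 51.7, 68, 64.7 and 77.1 CPM in High-VCR against 93.2, 92.5, 94.5 and 79.6 CPM in VCR, without overlap, at -0.46 ± 0.15 (interval -0.81 to -0.11). The measured gap was therefore small enough to lie inside 2-fold for 49 genes. VCR 1 had the highest ribosomal score of the 8 libraries and the lowest round spermatid score, 1.38. The ribosomal list's median was -0.15 without that library. The part of germ cell content in the gap was not tested.

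Mitochondrially encoded genes made up 7.32% ± 1.91 of counts in High-VCR and 8.26% ± 2.6 in VCR (SD, n = 4 each). The difference of -0.949 percentage points gave p = 0.571 in an exact two-sided permutation test, for which 0.0286 is the smallest possible value, and the adjusted p over 3 such tests was 0.571. Without VCR 1 the difference was 0.249 points. Of 13 such genes 12 were alike, a count that was 6 or 7 without High-VCR 1, High-VCR 4, VCR 2, VCR 3 or VCR 4. mt-Co1, a subunit of cytochrome c oxidase, differed by -0.08 ± 0.23.

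Lists of stress and death genes held alike shares from 66.7% to 85.7%, except immediate early genes at 45%, beside 60.9% of all tested genes. Apoptosis genes had 23 alike of 28 (82.1%) with a median of -0.05, hypoxia-induced genes 18 of 21 (85.7%) with -0.07 and the integrated stress response 16 of 21 (76.2%) with -0.12. For p53 targets the share was close to that of all genes, at 18 of 27 (66.7%) with a median of -0.22. Birc2, which restrains caspases through ubiquitin, had 83.9, 90.6, 81.8 and 85.3 CPM in High-VCR against 96.2, 87.2, 88.1 and 91.7 CPM in VCR. Mdm2, the p53 target that also degrades p53, averaged 117 ± 17.1 CPM in High-VCR and 119 ± 13.2 CPM in VCR (SD, n = 4 each), a difference of -0.03 ± 0.15. Both genes were picked from those with intervals inside the margin, and their groups overlapped. Bax, which permeabilises mitochondria in apoptosis, was the apoptosis member with the smallest p, at -0.43 ± 0.22. Heat shock genes had 16 alike of 24 (66.7%), again close to all genes, and Hsp90b1, a chaperone of the endoplasmic reticulum, had 1410, 1580, 1310 and 1400 CPM in High-VCR against 1590, 1480, 1450 and 1480 CPM in VCR. Antioxidant genes of the NRF2 list had 19 alike of 25 (76%), a count that was 7 without High-VCR 1 or High-VCR 4, 12 without High-VCR 3 and 11 without VCR 3 or VCR 4. Gstm1, a glutathione transferase, differed by -0.18 ± 0.27.

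Glucocorticoid-induced genes and metallothioneins were alike for 14 of 18 (77.8%), and immediate early genes for 9 of 20 (45%), below the 60.9% of all genes. Jund, a subunit of the transcription factor AP-1, was an exception, with 94.8, 70.6, 99.2 and 81.7 CPM in High-VCR against 52.8, 32, 36.7 and 63.1 CPM in VCR. Every High-VCR library was above every VCR library, as in 1.34% of all tested genes, and the difference was 0.91 ± 0.24 (edgeR unadjusted p 0.00504, adjusted p 0.972). Dusp1, a phosphatase of MAP kinases, differed by 1.01 ± 0.37 with overlap. The immediate early count was 5 without High-VCR 1, High-VCR 4 or VCR 3.

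Genes of the drug's own target and transport gave mixed shares. Tubulins were alike for 10 of 18, with a median of -0.10, and Tuba1a, an alpha tubulin, had 741, 492, 619 and 831 CPM in High-VCR against 1010, 912, 635 and 590 CPM in VCR (-0.23 ± 0.25). Reads of tubulins may be shared between near-identical copies. The tubulin count was 6 without High-VCR 1, 4 without High-VCR 4 and 5 without VCR 3 or VCR 4. Of 8 tested genes of vincristine efflux and metabolism 6 were alike, among them Abcc1, an efflux pump for vinca alkaloids, with 328, 245, 347 and 347 CPM in High-VCR against 369, 384, 302 and 283 CPM in VCR. DNA replication genes were alike for 25 of 31 and mitotic spindle genes for 11 of 30. Mki67, a proliferation marker, averaged 85.5 ± 11.1 CPM in High-VCR and 80.2 ± 18.9 CPM in VCR (SD, n = 4 each), a difference of 0.09 ± 0.19. The spindle list's wider intervals, with a median half-width of 1.09, left most of its genes undecided. The glycolysis list, which mixes somatic and sperm isoforms, was alike for 12 of 27, and for 7 without High-VCR 1 or High-VCR 4.

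**Figure D3:**
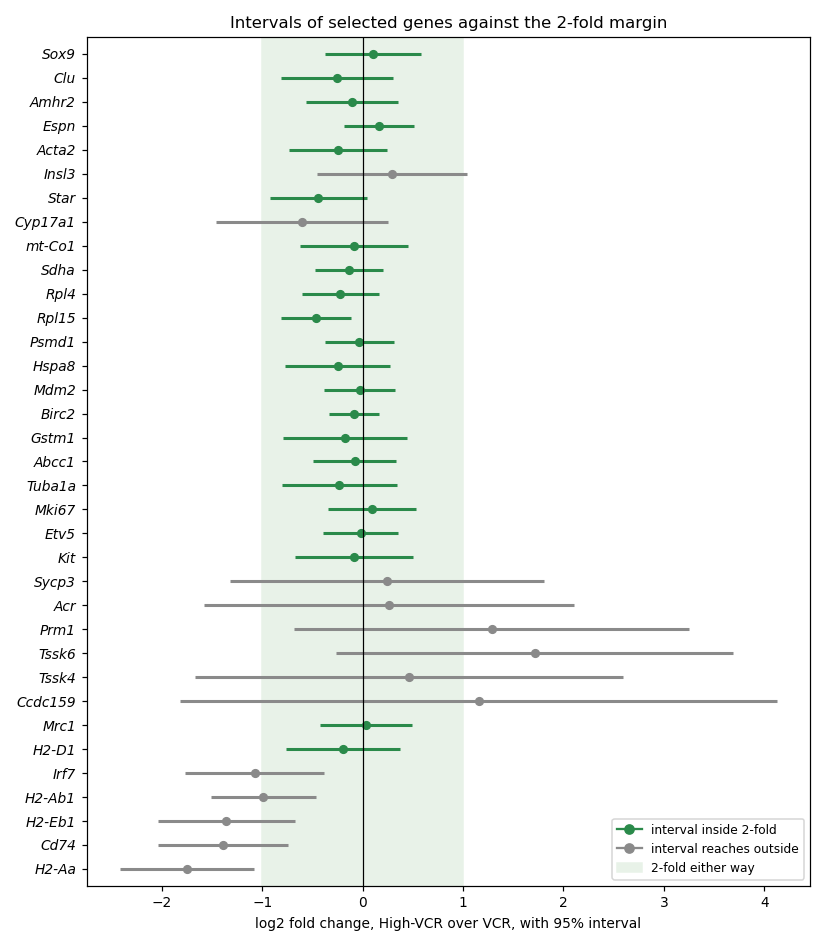
Log2 fold change of High-VCR over VCR with its 95% interval for 35 named genes, from edgeR, against a shaded band of 2-fold either way. Green intervals lie inside the band. Sertoli, energy, stress and early spermatogonial genes have narrow intervals near 0, spermatid genes have intervals that reach past both 0 and 1, and the class II genes at the bottom lie wholly below 0.

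Germ cell stages differed in how closely they could be compared. Spermatogonial genes had median interval half-widths of 0.69 (undifferentiated) and 0.62 (differentiating), beside 0.60 for all tested genes and wider ones at later stages. Alike were 8 of 14 undifferentiated (57.1%) and 9 of 14 differentiating genes (64.3%), shares near the 60.9% of all genes. The list medians were 0.08 and -0.02. Etv5, a transcription factor of stem cell renewal, had 50.1, 43.2, 59.1 and 52.5 CPM in High-VCR against 56, 61.4, 46.7 and 43.4 CPM in VCR. Kit, the receptor that marks differentiating spermatogonia, differed by -0.09 ± 0.26. Id4, a marker of stem cells, stood out with 6.01, 17.7, 6.68 and 3.98 CPM in High-VCR against 1.15, 0.819, 3.02 and 5.95 CPM in VCR, a difference of 1.65 ± 0.71 with an adjusted edgeR p of 0.972. The difference was 1.02 without High-VCR 2, the highest library, and the groups overlapped through VCR 4. The undifferentiated count was 5 without High-VCR 3, High-VCR 4 or VCR 2 and 4 without VCR 4.

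From meiosis onward neither likeness nor difference could be shown. Alike genes numbered 3 of 26 in leptotene and zygotene, 1 of 23 in pachytene and diplotene, 0 of 27 among round spermatids, 1 of 28 among elongating spermatids and 0 of 7 among testis-specific serine kinases. None of these genes passed the test, none had an unadjusted edgeR p under 0.05, and the median half-width of their intervals lay between 1.30 and 1.88 on the log2 scale. Estimates nevertheless lay mostly above 0, for 22 of 23 pachytene genes with a median of 0.41 and for all 28 elongating spermatid genes with a median of 1.04, beside 50.4% of all tested genes. The pachytene median was -0.25 without High-VCR 2 and -0.04 with High-VCR 3 and 4 alone. The elongating median was 0.66 without VCR 1 and stayed above 0 under every alternative run.

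Elongating spermatid scores were 7.36, 8.10, 8.18 and 7.51 in High-VCR against 3.35, 6.64, 7.82 and 7.24 in VCR. Prm1, a protamine that packs sperm DNA, had 832, 1180, 1580 and 872 CPM in High-VCR against 33.3, 177, 991 and 626 CPM in VCR, a difference of 1.29 ± 0.85 (interval -0.68 to 3.25). Odf1, a protein of the sperm tail's outer dense fibres, had 862, 1760, 1760 and 1170 CPM in High-VCR against 27.8, 438, 1070 and 611 CPM in VCR. In each gene VCR 1 was far below the rest and VCR 3 lay within the range of High-VCR. Acr, the protease of the acrosome, differed by 0.26 ± 0.80, and Sycp3, of the synaptonemal complex, by 0.24 ± 0.68. Without VCR 1 there were 6 alike genes of 27 among round spermatids, 4 of 28 among elongating spermatids, 3 of 24 in the pachytene list and 5 of 26 in the leptotene list. Axoneme genes were alike for 1 of 29 and piRNA pathway genes for 4 of 24, and for 3 and 7 without VCR 1.

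Tssk4 and Ccdc159 are the genes named in the series title. Tssk4, a testis-specific serine/threonine kinase, had 7.18, 3.95, 11.2 and 4.28 CPM in High-VCR against 0, 5.98, 9.2 and 4.02 CPM in VCR. The difference in mean log2(CPM + 1) was 0.716, with p = 0.514 in an exact two-sided permutation test and an adjusted p of 0.571 over 3 tests, and it was 0.00949 without VCR 1, which had 0 counts. Ccdc159, a coiled-coil gene, had 9.16, 6.15, 26.3 and 9.28 CPM in High-VCR against 0, 0.0819, 16.1 and 6.47 CPM in VCR, a difference of 1.80 with an exact permutation p of 0.229 and an adjusted p of 0.571. The groups overlapped in both genes. The edgeR interval of -1.67 to 2.60 for Tssk4 and of -1.82 to 4.13 for Ccdc159 spans a more than 2-fold difference either way. Tssk6, another kinase of the family, was above VCR in every High-VCR library, with 184, 394, 392 and 234 CPM in High-VCR against 5.02, 53.1, 170 and 139 CPM in VCR, and did not pass (1.71 ± 0.86, edgeR unadjusted p 0.0809, adjusted p 0.972).

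Several genes of antigen presentation by MHC class II had low levels in High-VCR, though no member passed edgeR's adjusted threshold. Class II molecules hold peptides on the surface of macrophages, dendritic cells and B cells, with an alpha and a beta chain assembled on the invariant chain Cd74. The 8 class II genes looked at were singled out after their values were seen, and 7 of them lay below 0. H2-Aa, an alpha chain, had 11.6, 11.3, 9.04 and 14.5 CPM in High-VCR against 57.1, 36.9, 22.4 and 40 CPM in VCR. Cd74 had 20.2, 13.5, 13.4 and 22.2 CPM in High-VCR against 67.4, 43.3, 31.9 and 39 CPM in VCR. In both, the highest High-VCR library was below the lowest VCR library. H2-Eb1, a beta chain, had 3.37, 3.49, 2.43 and 2.97 CPM in High-VCR against 12.2, 6.88, 4.98 and 7.44 CPM in VCR. H2-Ab1, the partner of H2-Aa, had 16.2, 24, 12.9 and 13.5 CPM in High-VCR against 37.4, 26.9, 33.3 and 34.4 CPM in VCR. Neither gene overlapped between the groups, beside 1.35% of all tested genes with High-VCR wholly below VCR.

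Log2 differences were -1.75 ± 0.29 for H2-Aa, -1.39 ± 0.28 for Cd74, -1.35 ± 0.30 for H2-Eb1 and -0.99 ± 0.23 for H2-Ab1. Unadjusted edgeR p-values were 0.000292, 0.00112, 0.0017 and 0.00231 in that order, all with an adjusted p of 0.972. DESeq2 called the first 3, with adjusted p-values of 0.000245, 0.0164 and 0.046. Their direction was the same under all 21 alternatives. That adds no support, because leaving out a library cannot turn the direction of a gene whose groups do not overlap. Ciita, the master activator of class II transcription, had 2.12, 0, 2.3 and 1.67 CPM in High-VCR against 1.94, 0.655, 1.51 and 2.62 CPM in VCR, with an interval of -2.11 to 1.84 that decides nothing. H2-DMa, which helps load peptides, differed by -0.51 ± 0.23. Of the beta chains that pair with it, H2-DMb1 differed by -0.38 ± 0.48 (interval -1.49 to 0.74) and H2-DMb2 by 0.14 ± 0.49, above 0. On the class I side, H2-D1 and Tapbp were picked from the alike genes of the list, so they do not compare the classes. H2-D1 had 381, 209, 305 and 426 CPM in High-VCR against 467, 386, 342 and 315 CPM in VCR and was alike at -0.19 ± 0.25, as was the peptide loader Tapbp at -0.22 ± 0.20.

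Set against their own saline groups in the edgeR fit of all 20 libraries, H2-Aa and Cd74 rose in both arms. The p-values of that fit use a spread shared with the saline groups and may understate the error. H2-Aa rose by 1.80 ± 0.63 in High-VCR relative to ALL, with an adjusted p of 0.016, and by 2.78 ± 0.61 in VCR relative to NC (adjusted p 0.000578). Cd74 rose by 2.29 ± 0.61 (adjusted p 0.00296) in High-VCR and by 3.42 ± 0.62 (adjusted p 8.67e-05) in VCR. H2-Eb1 differed by 1.16 ± 0.61 in High-VCR (adjusted p 0.0959) and rose by 2.69 ± 0.61 in VCR (adjusted p 0.00077). H2-Ab1 fell by 1.04 ± 0.31 in High-VCR (adjusted p 0.00564) and differed by 0.23 ± 0.30 in VCR (adjusted p 0.493). The difference of those responses did not pass for any of the 4 genes, with an adjusted p of 0.97 for H2-Ab1 at -1.27 ± 0.43. Low-VCR, the treated group with low infiltration, had 999, 98, 144 and 114 counts of H2-Aa, where VCR had 648, 451, 297 and 457 counts. Low-VCR 1 was thus above every VCR library, and the other Low-VCR libraries were below every VCR library. Cd74, H2-Eb1 and H2-Ab1 had the same order, with 1003, 107, 163 and 174 counts of Cd74 in Low-VCR against 765, 529, 423 and 446 in VCR.

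The promoters of H2-Aa and H2-Eb1 show the sequence element that class II genes share. Printed are 250 bases before to 50 after each gene start, from RefSeq on GRCm38.p6, an older build than that of the counts and of the C57BL/6J strain, not of NSG mice. H2-Aa lies on the minus strand at chr17:34287774-34288073 and H2-Eb1 on the plus strand at chr17:34305617-34305916. Capitals mark CTGATTGG, the core of the Y box, an element that the factor NF-Y binds, read along the gene's strand. It begins 51 bases before the start of H2-Aa and 62 before that of H2-Eb1, once in each window.
H2-Aa: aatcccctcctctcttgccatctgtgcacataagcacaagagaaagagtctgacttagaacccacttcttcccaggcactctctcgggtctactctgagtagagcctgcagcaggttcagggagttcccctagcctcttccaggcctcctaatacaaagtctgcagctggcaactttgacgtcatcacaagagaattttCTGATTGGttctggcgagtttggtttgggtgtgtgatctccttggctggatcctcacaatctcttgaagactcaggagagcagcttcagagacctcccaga
H2-Eb1: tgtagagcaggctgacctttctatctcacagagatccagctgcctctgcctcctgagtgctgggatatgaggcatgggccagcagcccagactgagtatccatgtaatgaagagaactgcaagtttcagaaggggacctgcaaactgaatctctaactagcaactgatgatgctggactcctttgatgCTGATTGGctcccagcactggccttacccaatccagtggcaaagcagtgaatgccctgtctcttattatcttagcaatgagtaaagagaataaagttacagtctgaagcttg
Over all 32851 promoter windows of that table, 1346 (4.1%) hold these letters on either strand. A match describes the letters and is neither a binding site nor a cause of the values above.

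**Figure D4:**
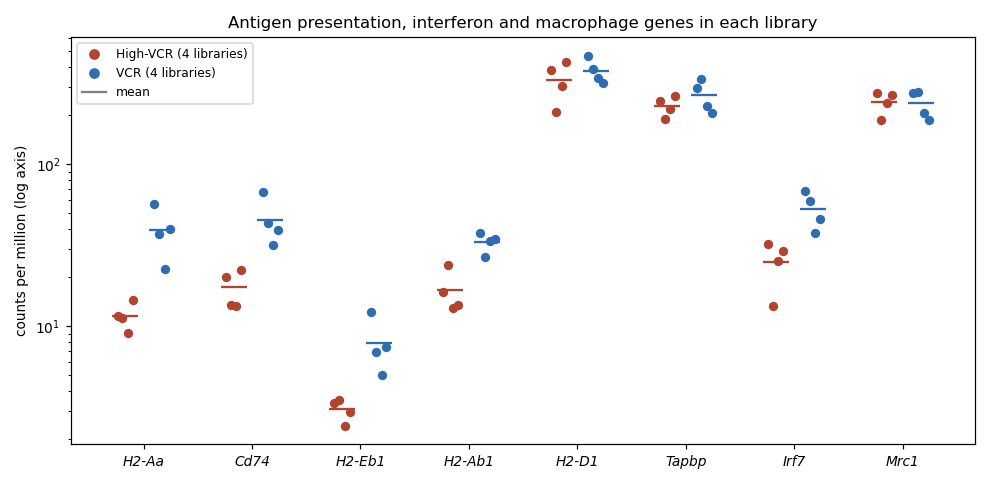
CPM on a log axis of 8 genes in the 4 High-VCR and 4 VCR libraries, with a line at each mean. H2-Aa, Cd74, H2-Eb1, H2-Ab1 and Irf7 have no overlap, with High-VCR below VCR, and the class I genes H2-D1 and Tapbp and the macrophage gene Mrc1 overlap. H2-D1, Tapbp and Mrc1 were picked from the alike genes of their lists.

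Genes of the other immune lists also lay mostly below 0. Of 38 interferon-stimulated genes 37 were below 0, beside 49.6% of all tested genes, the median was -0.53, and 9 (23.7%) had an unadjusted edgeR p under 0.05 with a lower level in High-VCR, beside 1.2% of all genes. Irf7, a transcription factor that amplifies the interferon response, had 32.1, 13.4, 25.1 and 29.3 CPM in High-VCR against 68.3, 59.2, 37.6 and 45.6 CPM in VCR, without overlap, at -1.07 ± 0.30 (unadjusted p 0.0071). Ifi44, an interferon-induced gene, overlapped at -0.85 ± 0.32. List scores were 4.23, 3.23, 3.92 and 4.29 in High-VCR against 4.94, 4.48, 4.12 and 4.23 in VCR, so the groups overlapped and High-VCR 2 and VCR 1 were the extremes. The median was -0.34 without High-VCR 2 and -0.30 without VCR 1.

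Few interferon genes were alike, 9 of 38, and that count depended on single libraries. It was 23 without High-VCR 2, 18 without VCR 1, 5 without High-VCR 3 or VCR 3 and 4 without High-VCR 1, High-VCR 4 or VCR 4. The whole list of MHC and antigen presentation genes had 6 alike of 22 and a median of -0.44. In it 21 lay below 0, beside 49.6% of all tested genes. An unadjusted edgeR p under 0.05 with a lower level in High-VCR was found for 4 (18.2%), beside 1.2% of all genes. H2-Aa and Cd74, described above, are among those 4, so the count is not separate from their values. The list's alike count was 13 without High-VCR 2, 14 without VCR 1 and 3 without High-VCR 1, 3 or 4. Complement had 8 alike of 20 with a median of -0.36, and Serping1, the inhibitor of the first complement component, differed by -0.30 ± 0.27. Its count became 14 of 21 without VCR 1 and between 1 and 5 of 21 without High-VCR 1, 3 or 4 or VCR 2, 3 or 4. Acute-phase genes had 7 alike of 23 and chemokines 6 of 16. Vcam1, an adhesion molecule for leukocytes, was alike with 220, 190, 202 and 244 CPM in High-VCR against 260, 223, 197 and 216 CPM in VCR.

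The defining macrophage markers Adgre1 and Csf1r were alike, while most genes of the macrophage list lay below 0. Mrc1, the mannose receptor of resident macrophages, was picked from the alike genes of the list. It had 274, 188, 240 and 269 CPM in High-VCR against 274, 280, 207 and 188 CPM in VCR and differed by 0.03 ± 0.20. Adgre1, the F4/80 antigen, differed by -0.07 ± 0.26, and Csf1r, the receptor on which macrophages depend, by -0.21 ± 0.27, both alike. Of 25 macrophage and monocyte genes 22 lay below 0, beside 49.6% of all tested genes, and the median was -0.36. Alike were 11 (44%), below the 60.9% of all genes. Of the 2 members with the smallest p, Cd74 is given above. The other, Fcgr1, differed by -0.87 ± 0.37 (edgeR unadjusted p 0.0469, adjusted p 0.972) and was not alike. The macrophage score was 4.30 to 5.00 in High-VCR and 4.70 to 5.36 in VCR, and its part in the class II levels was not tested. The alike count was 5 without High-VCR 1, High-VCR 4 or VCR 3, 7 without High-VCR 3 and 4 without VCR 4.

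Genes of the B lineage, searched because the injected cells are B-ALL, could be read from mouse symbols alone. Pax5, the B lineage factor, had at most 1.95 CPM in High-VCR and 0.981 CPM in VCR and did not pass the count filter. The list had 7 alike genes of 16 and 12 below 0. Human transcripts carry other symbols, and reads of human cells were not analysed here. Other small lists had 1 alike of 4 tested neutrophil genes, 0 of 4 T and natural killer cell genes, 1 of 6 adipocyte genes and 0 of 3 epididymal genes. Erythroid genes had 3 alike of 9, and 7 without High-VCR 2, which had 75.9 CPM of the haemoglobin gene Hba-a1 against 169 to 338 CPM in the other High-VCR libraries and 212 to 311 CPM in VCR.

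Among single genes, the smallest p-values belonged to Btbd35f15 and Gucy2c. Btbd35f15, of a family of BTB-domain genes with near-identical copies, had 21, 29, 31 and 43 counts in High-VCR against 0, 1, 0 and 0 counts in VCR. The ratio of the summed 124 counts in High-VCR to the 1 count in VCR, scaled to depth, had an exact 95% interval of 18.5 to 4070 that covers counting error alone. Its edgeR adjusted p was 0.178, and it passed with all 5 groups (0.00212) or the 3 treated groups (0.00523) in the fit. Gucy2c, a guanylate cyclase receptor known from the intestine, had 38, 36, 59 and 48 counts in High-VCR against 0, 0, 2 and 0 counts in VCR, a ratio of 75.3 (20.8 to 621) with an adjusted p of 0.187. Its counts also ranged widely in other groups, from 0 to 56 in Low-VCR and from 4 to 63 in NC. Btbd35f15 and Gucy2c also passed with DESeq2, limma voom or both, with a smallest adjusted p of 3.88e-05 for each. Of the 29 Btbd35 symbols deposited, 23 were tested, 20 of them above 0 with a median of 0.74, beside 50.4% of all tested genes above 0, and 6 had counts identical to another symbol. VCR 1, the library with low germ cell scores, had 0 counts for 20 of the 29 symbols, and without it 14 of 23 lay above 0 with a median of 0.36. The median was 0.41 without High-VCR 3.

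Other genes at the top of the ranking had smaller and steadier differences. Gp1bb, a platelet glycoprotein gene, had 12.9, 9.26, 14.5 and 10.1 CPM in High-VCR against 4.23, 5.16, 3.77 and 5.86 CPM in VCR (1.30 ± 0.22). Slc22a17, a receptor of lipocalin 2, had 25.4, 35.3, 29.1 and 28.5 CPM in High-VCR against 15.1, 8.27, 14.6 and 10.6 CPM in VCR (1.29 ± 0.22). Uhmk1, a protein kinase, differed by 1.23 ± 0.25. All 3 were higher in each High-VCR library than in any VCR library, as in 1.34% of all tested genes. None of the 3 passed in edgeR (adjusted p 0.972 each), while DESeq2 called them with adjusted p-values of 0.000628, 0.000499 and 0.0176. On the lower side Hnrnpl, a splicing regulator, averaged 122 ± 21.5 CPM in High-VCR and 204 ± 14.7 CPM in VCR (SD, n = 4 each), without overlap. It differed by -0.75 ± 0.16 (edgeR adjusted p 0.972, DESeq2 adjusted p 0.0168). Pars2, the mitochondrial prolyl-tRNA synthetase, differed by -0.83 ± 0.19 without overlap (edgeR adjusted p 0.972). High-VCR lay wholly below VCR in 1.35% of all tested genes.

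The drug comparisons, which share no samples, describe whether genes moved the same way in both arms. A shared direction does not show likeness of level as defined above. Calls come from the fit of all 20 libraries, whose shared spread may understate the error in the treated groups. Relative to ALL, High-VCR had 7015 genes higher (42.4%) and 5039 lower (30.5%) of 16534 tested by edgeR. Relative to NC, VCR had 6960 higher (42.1%) and 5891 lower (35.6%). Both comparisons called 6506 genes higher and 4807 lower, and 3 in opposite directions. The genes called in the same direction made up 93.9% of the High-VCR list and 88% of the VCR list, and Pearson's r over all tested genes was 0.945, a description across genes that are not independent. Of 10840 such genes that the direct comparison tested, 6733 (62.1%) were alike, a share close to the 60.9% of all genes.

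Sertoli cell genes rose in both comparisons for 27 of 28, Leydig cell genes for 17 of 17 and interferon-stimulated genes for 36 of 38. Round spermatid genes fell in both for 24 of 27. Of 28 elongating spermatid genes 17 fell in High-VCR relative to ALL and 27 in VCR relative to NC, and 17 fell in both. Median differences were 1.89 and 1.91 for Sertoli cells, 2.40 and 2.65 for Leydig cells, 2.56 and 2.88 for interferon genes, -2.25 and -2.97 for round spermatids and -1.47 and -2.34 for elongating spermatids, each pair with High-VCR relative to ALL before VCR relative to NC. The direction of these counts is set by the scaling. With all libraries scaled on the Sertoli cell list, the split was 1074 higher and 12319 lower for High-VCR and 1604 higher and 12026 lower for VCR. With DESeq2's size factors it was 6295 and 6031 for High-VCR and 6488 and 6493 for VCR, and with library size alone 8137 and 3724 for High-VCR and 8309 and 4480 for VCR.

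**Figure D5:**
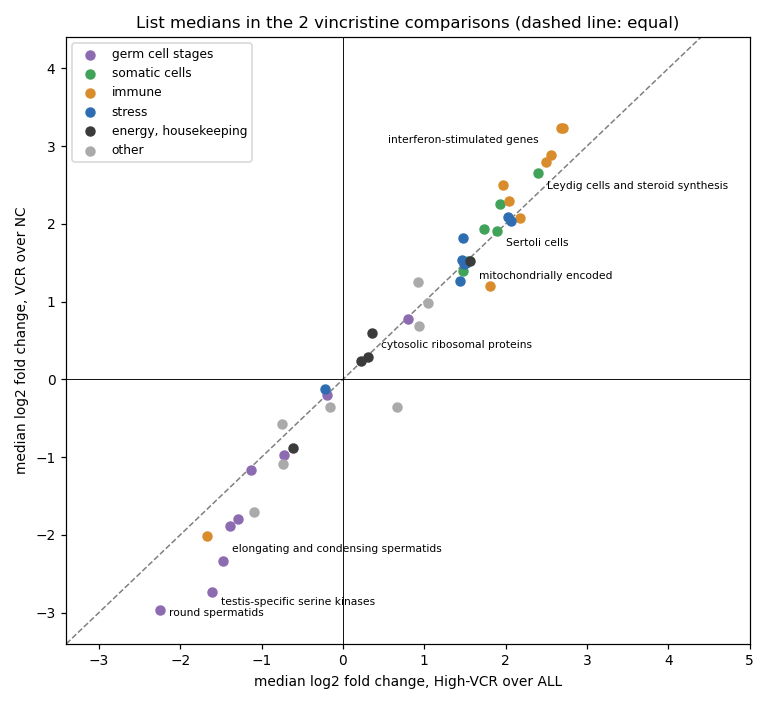
Median log2 fold change of each of 45 gene lists in High-VCR over ALL (horizontal) and VCR over NC (vertical), coloured by kind of list, with a dashed line of equality. Most points lie near the line, with most immune lists above it at the upper right and spermatid lists below it at the lower left, and the adipocyte list is the one with opposite signs.

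The difference of the drug comparisons was tested as an interaction in the same fit, with the same limit of a shared spread. Of 16534 genes 1 passed in edgeR, higher in the High-VCR arm (0.00605%), 0 passed in the other direction, and 752 (4.55%) had an unadjusted p under 0.05. That gene was Btbd35f15, at 6.46 with an adjusted p of 0.00924, which fell by 1.22 in High-VCR relative to ALL and fell by 7.68 in VCR relative to NC, where each NC library had at least 29 counts. Serpina3n, an acute-phase protease inhibitor, had the next smallest p at -2.31 (unadjusted p 0.000181) and did not pass. DESeq2 called 5 genes. No list had a called member in this test.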

How the data were processed

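RNA of whole testes was measured by directional, oligo-dT selected RNA sequencing, per the labels' protocols. The deposited table holds whole-number counts per gene symbol for 20 libraries, which the authors did not normalise. Trimmomatic 0.39, STAR 2.7.10b, featureCounts of Subread 2.0.3, DESeq2 1.36.0 and the build GRCm39 are named in the submitters' processing notes, but their roles, the annotation, the strand setting and how human reads were handled are not given in the sources used here. Symbols of overlapping genes or near-identical copies carry the uncertainty of that counting.

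Counts of the 8 High-VCR and VCR libraries were fitted in R 4.3.3 with edgeR 4.0.16 (filterByExpr by group with a minimum count of 10, TMM scaling, robust glmQLFit, glmQLFTest), with 6 residual degrees of freedom and Benjamini-Hochberg adjustment over all 15789 genes tested. Of 22066 symbols 1207 had no count. The fit was kept to those libraries because the saline groups varied far less, and a shared spread would understate the error. Standard errors and 95% intervals were derived from each fold change with its F statistic. High-VCR against ALL, VCR against NC and their difference were taken from 1 fit of all 20 libraries over 16534 genes, with 15 residual degrees of freedom. That shared spread was 29.8%, below the 30.6% of High-VCR and the 41.4% of VCR. The p-values of these comparisons may therefore understate the error in the treated groups. CPM values were scaled by TMM over the 8 libraries. List scores are means of log2 CPM with a prior count of 1. Tssk4, Ccdc159 and the mitochondrial share were tested by exact permutation, the genes on log2(CPM + 1). Counting intervals and the floor of 3 counts cover counting error only.

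The comparison, the gene lists and the tests were chosen with earlier results of these data known, so list medians and counts are descriptions. Genes named are the 2 of the title, the 5 with the smallest p in each direction with 1 CPM or more on average in the higher group, from each list the 2 members with the smallest p and the 2 alike members with the highest CPM, the 3 with the smallest interaction p, and defining cell markers. The class II genes other than H2-Aa, Cd74 and H2-Eb1 were added after values were seen. Some members named by this rule were left out for length. 1 defining marker is not reported here. Scripts were tested on simulated counts. Alternatives covered scaling, gene filters, the groups in the fit, a replicate block, each library left out, limma 3.58.1 and DESeq2 1.42.0. Replicate numbers did not pair the samples.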

Additional observations from a re-analysis of the deposited data

Results flagged for a closer look

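Within groups of 4, a library was marked where its gap to the nearest other exceeded Dixon's critical value, which chance alone gives in about 1 of 20 groups. Many lists and genes were looked at, so some marks arise at that rate, and whether their number exceeds it was not tested. High-VCR 2 stood apart in its group with a Sertoli list score of 6.46, a blood-testis barrier score of 6.44, a DNA replication score of 4.95 and 60 CPM of Sox9. High-VCR 3 stood apart with 26.3 CPM of Ccdc159 and 4.1 CPM of Gucy2c, and High-VCR 1 with 5630 CPM of Insl3. VCR 1 stood apart with a neutrophil score of 4.51 and an epididymis score of 0.352. VCR 4 stood apart with 396 CPM of Sdha and 79.6 CPM of Rpl15. 4 marks in VCR rest on counts at or near 0, with 0.0819 CPM of Btbd35f15 in VCR 2 and 0.151 CPM of Gucy2c, 0.981 CPM of Pax5 and 0.302 CPM of Lcn5 in VCR 3.

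The response of Btbd35f15 differed between High-VCR relative to ALL and VCR relative to NC by 6.46 on the log2 scale (edgeR interaction, adjusted p 0.00924). All 4 High-VCR libraries had counts of it and 3 of 4 VCR libraries had 0. Adjusted p-values ranged from 5.83e-05 to 0.0465 over the alternatives run. All of them rest on a spread shared with the saline groups.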

How the results depend on the processing

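Of 22 fits of High-VCR against VCR, the edgeR count of 0 called genes became 1 with all 5 groups, 1 with the 3 treated groups and 1 with High-VCR 1 and 2 alone, 2 with limma voom and 19 with DESeq2, and stayed 0 without any single library. The 9617 alike genes became 6012 with High-VCR 1 and 2 alone, where fewer libraries widen the intervals, and 4366 with a margin of 1.5-fold, and ranged from 8084 to 10542 with each library left out. The interaction count of 1 ranged from 1 to 2 with each library left out and was 5 with DESeq2. The cause of these moves was otherwise not tested. With the replicate block, 0 genes were called and 9005 were alike. The correlations of same-numbered libraries were 0.558, -0.31, 0.197 and -0.419, so the numbers give no pairing. The total of called genes in each drug comparison stayed within 1.5 times under every alternative run, but its split did not, with 1074 higher and 12319 lower for High-VCR against ALL and 1604 higher and 12026 lower for VCR against NC under scaling on the Sertoli cell list. The direction of 23 list medians was the same in all settings, and that of 22 turned in at least 1, as did that of 46 of 191 named genes. Among lists whose counts are read as alike, Sertoli cells, junctions, apoptosis, hypoxia, heat shock and DNA replication are among those whose small medians turned sign. Medians of all genes shifted by less than 0.1 under each scaling. With 4 libraries a group and a spread of 39.9%, differences in spermatid genes below about the half-widths given cannot be resolved, and totals of 10.6 to 16.4 M counts limit genes near 3 counts.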
